A study of Mus musculus with 36 samples.

Results

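The Zfp genes of the mouse are named for the zinc finger, a short fold that holds a zinc ion between cysteines and histidines and that lets the protein read DNA or RNA. Of 361 protein-coding autosomal genes in the mm9 annotation with a symbol of Zfp followed by a digit, and without Zfp57, 322 had at least 5 measured CpGs both within 500 bp of the start site and within the last exon. These 322 genes are described here, out of 16050 protein-coding autosomal genes that met the same minimum. Of the 39 genes left out, 18 had too few CpGs at the promoter and 27 at the last exon, and 6 of these had too few at both. Promoters with 4 CpGs, just outside the minimum, had a median methylation of 85.4% in 2 genes, and those with 5 CpGs, just inside, had 75.2% in 7 genes. The genes lay on 19 chromosomes, with 80 on chromosome 7, 36 on chromosome 17 and 31 on chromosome 13.

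Most Zfp proteins carry fingers of the C2H2 type in a row, each contacting a few bases, so that the row as a whole prefers a certain DNA sequence. Many also carry a KRAB domain, which recruits the corepressor Trim28 (KAP1) and with it the histone methyltransferase Setdb1 and HP1 proteins, and the targets of these factors are often retroelements. KRAB zinc finger genes have multiplied by tandem duplication and lie in clusters, and the fingers are usually encoded by a single last exon.

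Whole-genome bisulfite sequencing gave counts of methylated and unmethylated reads for each CpG in liver DNA of 24 mice aged 20 weeks. The parents were C57BL/6N (B6) and C3H/HeN (C3) inbred mice, and the offspring came from crosses in both directions, B6C3F1 from a B6 dam and a C3 sire and C3B6F1 from a C3 dam and a B6 sire, with 3 males and 3 females in each of the 4 groups. No treatment or engineered allele is named for any animal. By the study's methods the dams had borne litters and the F1 females had not, so sex and breeding history differed together in the parents. By the same methods the animals were families of a sire, a dam, a male and a female offspring; the labels do not tie an animal to its family, and the tests treat animals as independent. The 24 animals had 365740739 to 619888157 counts on autosomal CpGs, or 19.4 to 32.8 reads per CpG, and 75.0 to 77.5% methylation over all of them. The library of C3B6F1 male 1 had 0.600 times as many reads per CpG on chromosome X as on the autosomes, against 0.477 to 0.521 in the other males, and the calls between F1 males and F1 females are given with and without it. Liver DNA holds several cell types, and a level between 0 and 100% cannot be told apart as part of the cells or part of the alleles.

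Promoters of Zfp genes differed in how many CpGs they hold, and sequences of 3 kinds are printed to show where the measured CpGs lie. The 200 bases before the starts of 2 unmethylated members, Zfp36 on the minus strand of chromosome 7 (chr7:29164275-29164474) and Zfp568 on the plus strand (chr7:30768774-30768973), are printed first, then the same stretch of 2 methylated members, Zfp111 (chr7:24988603-24988802, minus) and Zfp647 (chr15:76748441-76748640, minus), and last a 200-base stretch of finger-coding sequence in the last exon of Zfp180 (chr7:24890324-24890523, plus). All are from mm9, 5′ to 3′ on the strand of the gene, with every measured CpG in capitals.
Zfp36: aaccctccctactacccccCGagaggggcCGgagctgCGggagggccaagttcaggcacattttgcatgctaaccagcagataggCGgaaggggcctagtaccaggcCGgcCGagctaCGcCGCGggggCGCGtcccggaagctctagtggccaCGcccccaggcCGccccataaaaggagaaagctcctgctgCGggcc
Zfp568: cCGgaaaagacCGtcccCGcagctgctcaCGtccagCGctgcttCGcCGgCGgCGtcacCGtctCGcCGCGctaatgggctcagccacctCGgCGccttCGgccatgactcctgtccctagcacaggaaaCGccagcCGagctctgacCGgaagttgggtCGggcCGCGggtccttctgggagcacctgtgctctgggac
Zfp111: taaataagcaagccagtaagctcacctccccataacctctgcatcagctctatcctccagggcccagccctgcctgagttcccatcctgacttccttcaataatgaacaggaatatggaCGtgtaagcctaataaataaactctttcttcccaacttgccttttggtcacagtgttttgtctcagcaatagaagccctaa
Zfp647: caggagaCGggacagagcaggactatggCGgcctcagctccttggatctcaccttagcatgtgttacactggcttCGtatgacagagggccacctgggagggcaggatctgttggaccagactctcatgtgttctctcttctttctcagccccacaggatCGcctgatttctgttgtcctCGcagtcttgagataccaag
Zfp180: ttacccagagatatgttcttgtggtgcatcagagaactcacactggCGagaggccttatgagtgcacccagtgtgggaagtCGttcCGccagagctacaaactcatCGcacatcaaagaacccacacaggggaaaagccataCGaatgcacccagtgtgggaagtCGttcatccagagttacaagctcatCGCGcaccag

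The CpGs printed for Zfp36 had a methylation of 0.185% ± 0.288 (SD, n = 24 animals) and those for Zfp568 0.297% ± 0.244. Zfp111, with 1 CpG in the same length, had 97.2% ± 2.83, and the 5 CpGs of Zfp647 had 96.7% ± 1.27. The 8 CpGs of the Zfp180 fingers had 96.1% ± 1.67.

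The promoters of Zfp genes were mostly unmethylated in liver and their last exons mostly methylated. The median over the 322 promoters was 2.42% ± 0.204 (SD over 24 animals, range 2.11 to 2.91%), against 3.80% ± 0.292 over the 16050 genes. It depended on the window, with 0.513% for 250 bp and 11.4% for 1000 bp on either side. The median over last exons was 94.3% ± 0.272 (range 93.6 to 94.8%), against 87.5% ± 0.489 over all genes. By the mean of the 24 animals, 245 promoters of Zfp genes (76.1%) were under 10%, 32 lay between 10 and 50%, and 45 (14.0%) were at or above 50%. With 250 bp, 27 were at or above 50%. A narrower window can hold fewer CpGs, and how many genes kept at least 5 there is not given, so 27 is not set against 322. Around the starts of the 45, bins centred from 150 bp before to 150 bp after had means of 83.0 to 85.4%. Of all genes, 62.7% had a promoter under 10% and 25.2% had one at or above 50%. At the last exon, 241 of the 322 (74.8%) were at or above 90%, against 38.6% of all genes, and 13 (4.04%) were under 50%, against 10.5%.

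The last exon was more methylated than the promoter in every one of the 24 animals for 292 of the 322 genes (90.7%), and the same held for 79.4% of all genes. In 6 of the 322 genes the promoter window overlapped the last exon, so the 2 regions can share CpGs there. The median difference between the 2 regions was 89.0 points, against 75.0 points over all genes, and it was at least 80 points in 232 Zfp genes (72.0%), against 44.0% of all genes. These shares describe the genes as a group. No test was made, since genes in a cluster share sequence and position.

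**Figure D1:**
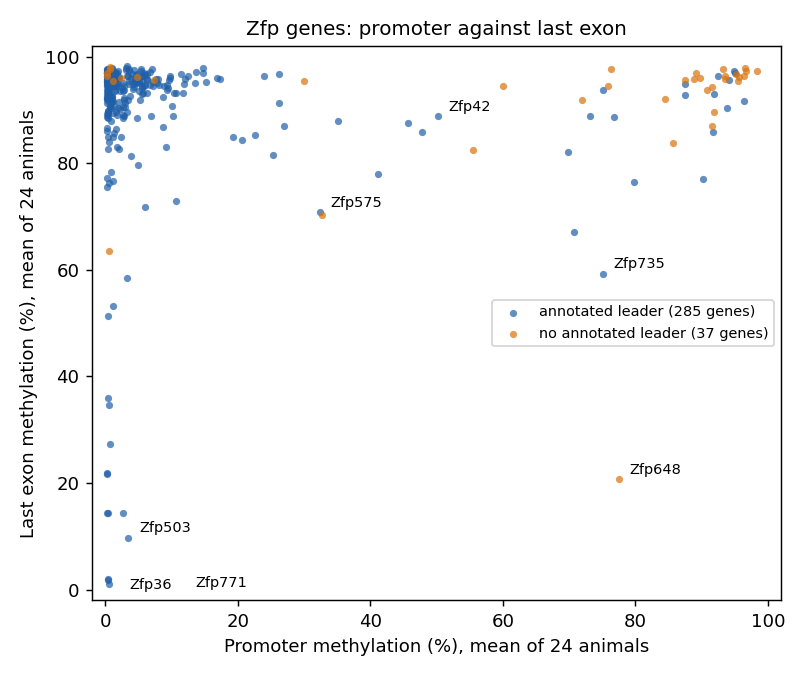
Last exon methylation (y, %) against promoter methylation (x, %) of the 322 Zfp genes, each point 1 gene and the mean of 24 animals, split by whether the transcript has an annotated leader before its coding sequence. Most genes sit in the upper left corner, and 45 lie at or above 50% on the x axis.

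In 5 genes the promoter was the more methylated in every animal. The widest gap was at Zfp648, with 77.5% ± 2.20 at the promoter and 20.7% ± 2.60 at the last exon (SD, n = 24). Zfp735 followed with 75.0% ± 4.02 and 59.3% ± 3.76, and Zfp352 with 90.2% ± 2.62 and 77.0% ± 3.90. Zfp957 and Zfp654 were above 85% in both regions.

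The lowest promoter levels were those of Zfp146 at 0.230% ± 0.165, Zfp472 at 0.231% ± 0.147, Zfp942 at 0.245% ± 0.159, Zfp830 at 0.247% ± 0.145, Zfp943 at 0.247% ± 0.176 and Zfp408 at 0.248% ± 0.160 (SD, n = 24). These 6 do not differ beyond their spread. Reads left unconverted by bisulfite were not subtracted, so levels this low cannot be told from no methylation. At the other end were Zfp709 with 98.3% ± 1.15, Zfp869 with 96.6% ± 1.10, Zfp810 with 96.5% ± 0.997, Zfp420 with 96.4% ± 0.933, Zfp654 with 96.3% ± 0.821 and Zfp647 with 95.6% ± 1.26. Of these 6, Zfp654 is the exception in having a leader annotated before its coding sequence.

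Methylation around the start followed the number of CpGs there. Promoters with 5 to 14 CpGs in the window of 1001 bp had a median of 89.1% over 39 Zfp genes, and 36 of them were at or above 50%. With 15 to 29 CpGs the median fell to 5.61% over 55 genes, 9 of them at or above 50%. None of the 127 genes with 30 to 59 CpGs and none of the 101 with 60 or more reached 50%, and their medians were 2.66% and 0.469%. Over all genes the bin of 15 to 29 CpGs had a median of 63.1%, with 57.6% of 2382 genes at or above 50%, against 16.4% of the Zfp genes. The last exon showed no such dependence, with medians between 92.6 and 95.2% in the 4 bins.

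The annotation bears on the methylated promoters. Of the 45, 26 belong to transcripts whose model begins with the coding sequence and has no leader, so that the window may not hold the true start. Among the 285 Zfp genes with an annotated leader, 19 (6.67%) were at or above 50%, and among the 37 without, 26 (70.3%) were. For 8 of the 45 genes a protein-coding transcript starts farther upstream, at Zfp78 by 3 bp, which leaves the level at 91.6%, and at the others by 1320 bp or more. The window at that start had 0.349% at Zfp62, 2.30% at Zfp715, 3.06% at Zfp420 and 7.41% at Zfp287, and 11.7% at Zfp563, while it had 77.4% at Zfp111 and 93.6% at Zfp114.

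**Figure D2:**
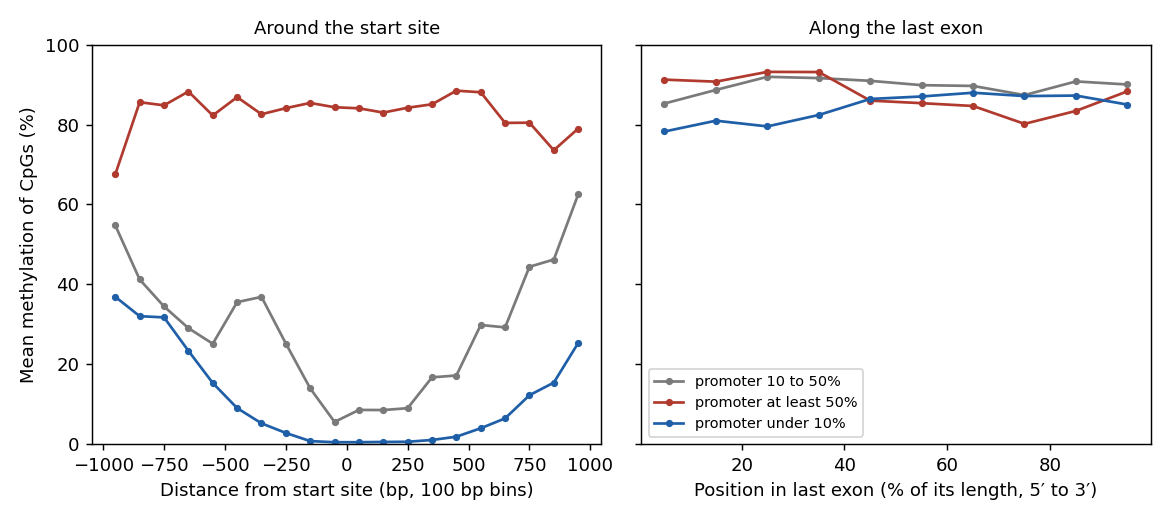
Mean methylation of CpGs (y, %) by distance from the start site in bins of 100 bp (left) and by position along the last exon in 10 equal parts of its length (right), for Zfp genes split by promoter methylation. Around the start the 245 genes under 10% dip to 0.505% and rise to 36.9% near 950 bp upstream, the 45 genes at or above 50% have no dip, and along the last exon all 3 classes are high.

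The last exon of a Zfp gene is long, with a median of 2323 bp and 33 CpGs, against 1220 bp and 18 CpGs over all genes. The fingers were located by translating each coding sequence and searching for 2 cysteines and 2 histidines at the spacing of the C2H2 fold. Fingers were found in 308 of the 322 proteins, with a median of 10 and up to 36 in Zfp142, and in 238 genes the last exon encoded all of them. Finger-coding bases held 2.30 CpGs per 100 bp at 90.8% ± 0.863 methylation (SD over 24 animals), other coding bases 2.45 CpGs at 84.2% ± 1.05, and bases outside the coding sequence 0.972 CpGs at 87.9% ± 0.319. Reads were pooled over all Zfp genes for these values. Genes with no finger found add only to the other parts, so parts of the same exon are not compared. The median last exon level was 76.6% in the 14 genes with no finger found, 89.4% in the 47 with 1 to 4, 94.2% in the 96 with 5 to 9 and 95.3% in the 165 with 10 or more. Across the 322 genes, which share sequence and are no independent replicates, Spearman's rho of the number of fingers with last exon methylation was 0.42.

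The 6 lowest last exons included all 3 CCCH genes listed here, Zfp36, Zfp36l1 and Zfp36l2, which do not carry C2H2 fingers. Zfp771 had 1.10% ± 0.567 over 136 CpGs and was followed by 2 CCCH genes, whose proteins bind AU-rich elements of messenger RNAs and speed their decay. Zfp36 (tristetraprolin) had 1.75% ± 0.704 over 49 CpGs and Zfp36l2 had 2.01% ± 0.803 over 212. Zfp503 had 9.70% ± 1.26 and Zfp335, a nuclear factor needed in neural progenitors, had 14.3% ± 4.66 over 9 CpGs. The third listed CCCH gene, Zfp36l1, had 14.3% ± 3.24. The promoters of these 6 genes were all under 5%.

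Among factors of development, the last exons of Zfp423, known from adipocyte commitment, and Zfp281 were at 27.2% ± 3.35 and 36.0% ± 2.23, while those of Zfp462 and Zfp148 were at 89.0% ± 1.05 and 92.8% ± 0.548. The promoters of these 4 were between 0.328 and 1.77%. Zfp598, which ubiquitinates collided ribosomes, Zfp207, which acts at the spindle, and Zfp326 had promoters between 0.254 and 1.12% and last exons between 84.9 and 92.1%. Zfp787 had 0.319% ± 0.206 at the promoter and 93.1% ± 0.949 at the last exon.

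Genes used in pluripotent or germ cells ranged from 3.56 to 55.4% at the promoter. Zfp42 (Rex1), a marker of pluripotent stem cells, had 50.2% ± 5.41 at the promoter, ranging from 38.8 to 59.9% in the 24 animals. Zfp541, expressed in the testis, had 55.4% ± 4.58 at a model with no leader, and Zfp819 had 22.6% ± 3.65. Zfp37 had 3.56% ± 0.841, among the low promoters. Zfp296 was measured at the promoter alone, with 8.77% ± 1.18.

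Of the genes that repress retroelements or imprinted genes, Zfp809, which silences murine leukaemia virus, had 0.423% ± 0.221 at the promoter, Zfp568, which represses a placental transcript of Igf2, had 0.263% ± 0.136, and Zfp932 had 3.19% ± 0.918. Zfp809 and Zfp932 have too few CpGs in the last exon to be members. Zfp445, a KRAB zinc finger that helps to maintain imprints, had 87.5% ± 8.61 at its annotated start. The symbol Zfp708 belongs to 2 gene models, with promoters at 94.2% ± 2.35 and 91.6% ± 3.16. Near-identical neighbours can share reads, so values of such copies are uncertain.

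The factors that KRAB zinc fingers recruit, and the DNA methylation enzymes, mostly had low promoters: the median was 0.536% over 16 gene models. Trim28 was at 0.299% ± 0.168, Setdb1 at 0.379% ± 0.305 and Cbx5 (HP1 alpha) at 0.247% ± 0.183, and the maintenance methylase Dnmt1 was at 5.76% ± 1.53. The highest, 79.9%, was that of a second model named Atf7ip. The promoters of 7 liver genes, given for the tissue, ranged from 16.8 to 58.8% with a median of 20.5%. The highest was Serpina1a, with 58.8% ± 5.06, and the promoter of Alb was at 27.1% ± 9.08, that of Apoa1 at 16.8% ± 4.66 and that of Ttr at 18.5% ± 4.30. Of the 16 and 7 models, 0 were called between the strains (limma), against 1.72% of all promoters, and nothing is read from so few.

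With starts of neighbours at most 200 kb apart and at least 4 genes, 129 Zfp genes fell into 17 clusters and 193 were isolated. Only the Zfp genes described here were counted as neighbours, and genes in groups of fewer than 4 are among the isolated. Clustered promoters had a median of 3.74% (range over animals 3.21 to 4.73%), and isolated ones 1.50% (1.14 to 1.92%). These ranges are of the median over genes in each animal and do not show the spread between genes. Whether clustered and isolated genes differ was not tested. Promoters under 10% numbered 93 of the 129 clustered genes and 152 of the 193 isolated ones. Clustered genes also had fewer CpGs around the start, with a median of 37 against 54. Last exons had a median of 95.2% in clusters and 93.2% in isolated genes. The share of promoters at or above 50% was 16.3% (21 genes) in clusters and 12.4% (24 genes) outside.

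The clusters are given by the median over their promoters and by the member with the highest promoter. The 5 genes on chromosome 7 from Zfp60 to Zfp780b had a median promoter level of 88.2% ± 1.84 (SD, n = 24), and 4 of the 5 were at or above 50%, the highest being Zfp780b with 93.1%. All 4 of these models have no annotated leader. The 19 genes on chromosome 13 from Zfp712 to Zfp273 formed the largest cluster, with a median of 8.00% ± 1.45 and Zfp87 highest at 95.5%. The 14 genes on chromosome 7 from Zfp84 to Zfp146 had 1.85% ± 0.418, with Zfp420 highest, and the 12 from Zfp180 to Zfp575 had 5.25% ± 1.15, with Zfp111 highest at 94.9%. The 10 genes on chromosome 17 from Zfp677 to Zfp943 were all under 10%, with a median of 1.71% ± 0.410 and Zfp229 highest at 7.76%. The 10 genes from Zfp871 to Zfp101 on the same chromosome had 2.70% ± 0.860 and held 3 methylated promoters, with Zfp563 highest at 95.1%.

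Other clusters of 5 or more genes had a low median at the promoter. The 8 genes from Zfp553 to Zfp629 had 1.17% ± 0.268 and Zfp764 highest at 6.67%, the 7 on chromosome 6 from Zfp786 to Zfp746 had 1.39% ± 0.463 and Zfp786 highest at 8.65%, and the 5 on chromosome 9 from Zfp560 to Zfp846 had 1.09% ± 0.496 and Zfp26 highest at 7.05%. The 6 genes from Zfp628 to Zfp580 had 2.50% ± 0.432, with Zfp579 highest at 47.8%. The 6 genes from Zfp787 to Zfp28 had 6.41% ± 1.13, with Zfp78 highest at 91.6%. The 6 genes on chromosome 11 from Zfp354c to Zfp354a had 7.49% ± 1.37, with Zfp354a highest at 26.2%, and the 5 on chromosome 8 from Zfp868 to Zfp866 had 4.91% ± 1.12, with Zfp869 highest at 96.6%.

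**Figure D3:**
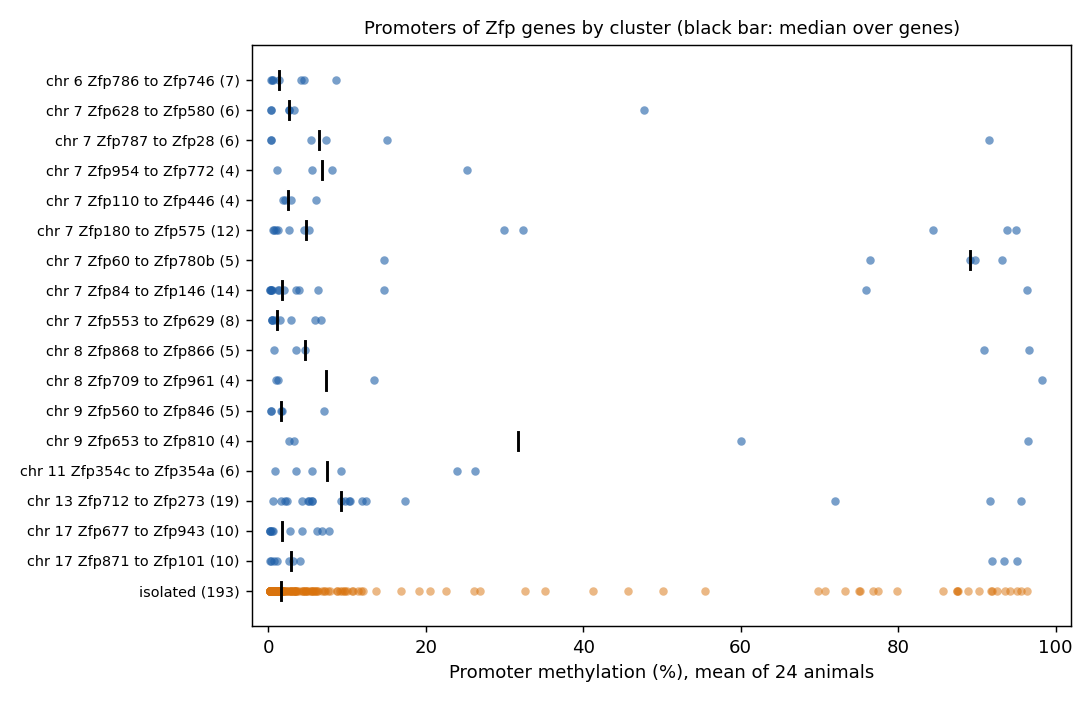
Promoter methylation (x, %; mean of 24 animals) of each Zfp gene, 1 row per cluster named by its first and last gene with the number of genes, and a last row for the 193 isolated genes; the black bar is the median over genes. The row from Zfp60 to Zfp780b lies near 88.2%, and most other rows have their median under 10%.

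Whether the strains differ was asked with the parents, 6 B6 against 6 C3 animals. Of 321 promoters tested, 1 differed by at least 10 points at an adjusted p below 0.05 (limma, Benjamini-Hochberg over 35866 promoters and last exons of all genes), against 1.72% of all 19192 promoters. Of 322 last exons, 2 did, against 2.24% of all 16674 last exons. At any size of difference, 35 promoters passed, 16 of them higher in B6 and 19 higher in C3, and 38 last exons passed, 10 higher in B6 and 28 higher in C3. The background at any size was 10.1% of promoters and 13.5% of last exons, and over all genes too more regions were higher in C3, with 1261 promoters against 676 higher in B6 and 1802 last exons against 453. The median absolute difference between strains was 0.436 points at promoters and 0.671 points at last exons, against 0.503 and 1.29 points over all genes.

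The last exon of Zfp575 had the largest difference among the Zfp genes. In B6 males it was at 54.0, 61.6 and 59.0%, and in B6 females at 59.4, 58.6 and 67.1%. In C3 males it was at 82.3, 83.0 and 84.1%, and in C3 females at 85.0, 84.7 and 85.7%. Every B6 animal was below every C3 animal, and the difference was -24.2 points (log2 ratio -1.82, SE 0.11, adjusted p = 5.9e-12, limma). The means of the F1 animals lay in between, with 71.4% ± 1.71 in B6C3F1 and 67.6% ± 2.41 in C3B6F1 (SD, n = 6), and the lowest C3B6F1 animals, at 63.0 and 66.8%, were below the highest B6 animal. The difference was in the coding part, where 58 CpGs had 54.5% ± 5.52 in B6 and 84.7% ± 1.47 in C3. In the 8 CpGs after the coding sequence the order was the other way, with 91.8% ± 4.16 in B6 and 80.3% ± 2.54 in C3; both parts were delimited by the annotation and compared after the values were seen.

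A 200-base stretch of that coding part is printed as an example of where the strains differed (chr7:25370857-25371056, mm9, minus strand, measured CpGs in capitals). Its 21 CpGs had a mean of 55.4% in B6, 83.4% in C3, 71.1% in B6C3F1 animals and 63.9% in C3B6F1.
Zfp575: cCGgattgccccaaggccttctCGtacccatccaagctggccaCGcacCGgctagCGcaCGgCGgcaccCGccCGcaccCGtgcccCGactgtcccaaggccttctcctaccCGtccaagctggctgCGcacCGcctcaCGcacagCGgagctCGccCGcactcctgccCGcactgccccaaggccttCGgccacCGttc

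The last exon of Zfp933 on chromosome 4 was at 96.2% ± 0.366 in B6 and 85.8% ± 1.73 in C3 (SD, n = 6), a difference of 10.4 points (log2 ratio 2.04, SE 0.12, adjusted p = 1.7e-11, limma). The B6 animals lay between 95.5 and 96.5% and the C3 animals between 82.5 and 87.3%. Without C3 male 2 the difference was 9.72 points, under the minimum for a call. Of its 35 CpGs, 4 were in opposite states in the strains, and without these 4 the exon was at 96.2% ± 0.321 in B6 and 97.0% ± 0.550 in C3. The 4 CpGs are printed with the bases around them (mm9, minus strand, the CpG in capitals), since they carry the call.
Zfp933 chr4:147197348-147197367: aaaagcgtgCGccaccataa
Zfp933 chr4:147198335-147198354: aatgttttgCGttctgaatt
Zfp933 chr4:147199450-147199469: atttttgcaCGttgaaccat
Zfp933 chr4:147199622-147199641: aaagaactaCGgaaggaagt

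The first of these CpGs was methylated in 97.7% of 130 B6 reads and 2.63% of 76 C3 reads. The second had 95.2% in B6 and 0% in C3 (148 reads), the third 94.0% and 0.488%, and the last 98.4% and 0.578%. In F1 animals the 4 CpGs were between 51.1 and 61.3%. At all but the third the deposited list of single nucleotide variants has an entry at the C or the G, and a variant base there can be read as a converted, unmethylated cytosine. The third is absent from that list. By the study's methods, only CpGs found in mm9 and in the local genomes of both strains were kept. Why listed entries fall at counted CpGs was not checked. Among 29369 CpGs in the promoters and last exons of Zfp genes with at least 20 pooled reads in each strain, 5 differed by at least 80 points, all of them higher in B6, and the fifth was at Zfp748 with 96.2% in B6 and 11.4% in C3. By the study's methods the CpGs are those of mm9, so a CpG absent from mm9 could not appear. Nothing is read from the shared direction. Without CpGs at a listed variant, the Zfp933 difference was 3.23 points and not called.

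The promoter window of Zfp109 was at 36.2% ± 6.58 in B6 and 25.4% ± 5.28 in C3 (SD, n = 6), a difference of 10.7 points (log2 ratio 0.73, SE 0.17, adjusted p = 0.0061, limma). The groups overlapped: B6 ran from 31.1 to 49.0% and C3 from 21.8 to 35.9%. The model of Zfp109 has no annotated leader. C3 had 0.591 times the relative depth of B6 in this window. Without B6 male 2 the difference was 8.34 points and without C3 female 2 it was 9.34 points, and neither was called. The call of Zfp109 was also lost with reads thinned to the shallowest animal (8.50 points), with CpGs of at least 5 reads in every animal (6.53 points) and with windows of 250 bp (5.01 points) or 1000 bp (5.65 points) on either side.

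**Figure D4:**
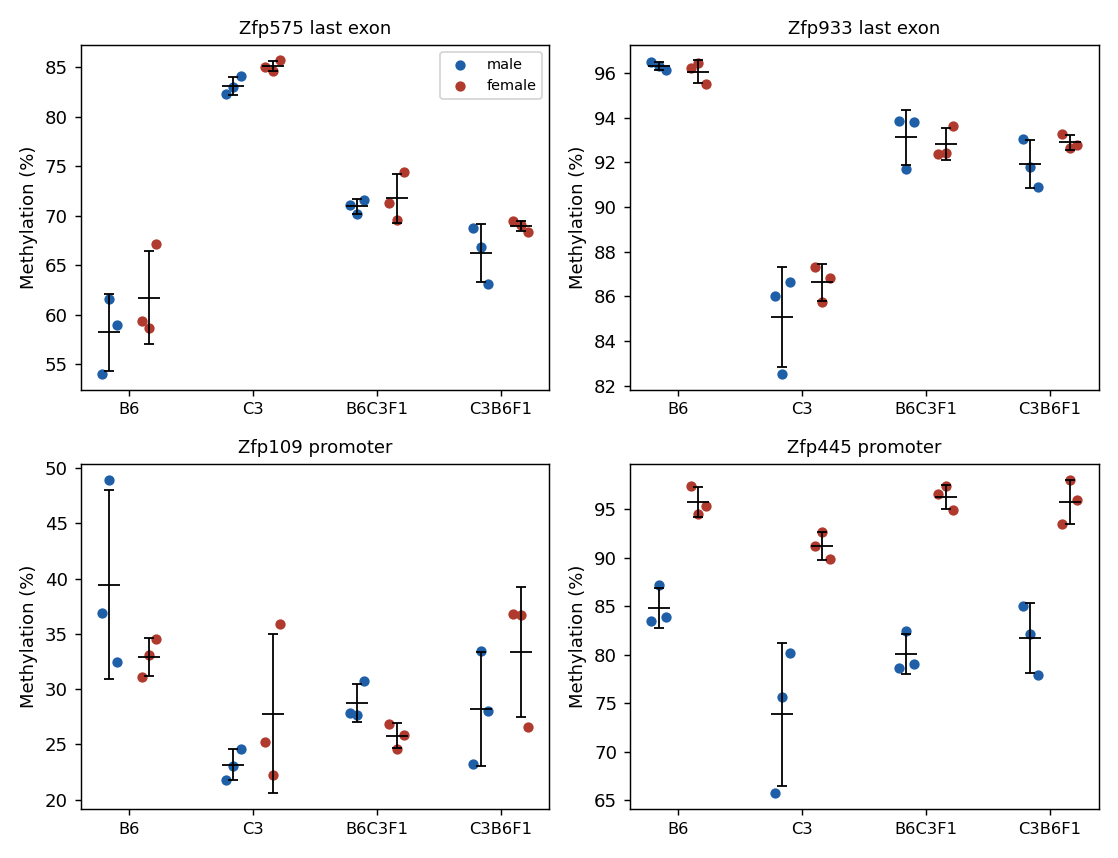
Methylation (y, %) of the last exons of Zfp575 and Zfp933 and the promoter windows of Zfp109 and Zfp445 in each animal by strain or cross, with males in blue and females in red; black bars are the mean and SD of 3 animals, and each panel has its own y axis, which does not start at 0. B6 and C3 do not overlap at Zfp575 and Zfp933, and males and females do not overlap within any group at Zfp445.

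Smaller strain differences at promoters passed the adjusted p without reaching 10 points. The promoter of Zfp263 lay between 0.165 and 0.581% in B6 and between 0.868 and 22.4% in C3, a difference of -8.31 points (log2 ratio -4.30, SE 0.64, adjusted p = 3.7e-05, limma). The C3 females, with 13.0% ± 8.92, were higher than the C3 males, with 4.14% ± 3.23 (SD, n = 3), but in the test of a strain difference that depends on sex 0 of 321 promoters passed, with 26 (8.10%) at an unadjusted p below 0.05 (limma), against 0.00521% of all promoters that passed and 7.17% at an unadjusted p below 0.05. The promoter of Zfp180 was at 7.11% ± 2.59 in B6 and 0.702% ± 0.335 in C3 (adjusted p = 4.9e-07, limma). There, 21 CpGs from 50 to 310 bp after the start were at 15.0% ± 4.81 in B6 and 0.396% ± 0.384 in C3. The F1 animals had 10.8% ± 5.22 (B6C3F1) and 10.9% ± 6.02 (C3B6F1) there, while the 15 CpGs before them were at 1.93% ± 1.03 in B6 and 1.74% ± 0.945 in C3. This block was chosen after its values were seen. The last exon of Zfp180 passed in the other direction, with -3.52 points (log2 ratio -1.41, adjusted p = 3.5e-08, limma). C3 had 0.487 times the relative depth of B6 in that exon. Zfp619 was at 7.02% ± 1.54 in B6 and 2.06% ± 1.03 in C3 (adjusted p = 2.4e-07, limma), and Zfp759 at 11.1% ± 1.93 and 4.59% ± 1.51 (adjusted p = 0.00018, limma). C3 had 1.07 times the relative depth of B6 at the promoter of Zfp263, 0.755 times at that of Zfp180, 0.599 times at that of Zfp619 and 0.389 times at that of Zfp759.

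Listed variants were more frequent in the promoters that passed at any size. Of those 35 promoters, 65.7% held a listed variant, with 2.74 variants per kb, against 28.2% and 0.999 per kb in the other 287. In last exons 63.2% of the 38 held one, against 38.7% of the other 284. Over all genes, passed or not, 26.7% of promoters and 33.1% of last exons held one. The share among promoters of all genes that passed was not counted. The depth of C3 relative to B6 ran from 0.199 to 2.57 over the promoters of Zfp genes, with 7 under 0.5 and 2 over 2. The part of variants and depth in the strain differences was not tested.

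The direction of the cross made no difference that passed. Between B6C3F1 and C3B6F1, 0 of 321 promoters and 0 of 322 last exons were called, against 0.0208% of all promoters and 0.006% of all last exons, and 28 promoters (8.72%) and 10 last exons (3.11%) had an unadjusted p below 0.05 (limma), against 7.53% of all promoters and 7.27% of all last exons. Between the F1 animals and the mean of the parents, 0 were called, against 0.0261% of all promoters and 0.024% of all last exons. At an unadjusted p below 0.05 there were 29 promoters (9.03%) and 14 last exons (4.35%), against 7.84% and 7.30% of all (limma). Between dams and F1 females, 0 were called, against 0.0417% of all promoters and 0.06% of all last exons. At an unadjusted p below 0.05 there were 19 promoters (5.92%) and 11 last exons (3.42%), against 6.80% and 8.14% of all (limma). Without C3B6F1 male 1 the calls between the crosses and between F1 animals and their parents were also 0 (limma). The largest absolute difference between the crosses was 5.03 points at promoters and 4.96 points at last exons, against 23.8 and 23.2 points over all genes, which are far more numerous.

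Sires and dams differed at the annotated start of Zfp445 on chromosome 9, the 1 promoter called of 321, against 0.224% of all promoters, and 0 of 322 last exons were called, against 0.384%. B6 males were at 83.5, 87.2 and 83.9% and B6 females at 97.4, 94.6 and 95.3%. C3 males were at 65.7, 75.7 and 80.2% and C3 females at 91.2, 92.7 and 89.9%. Every dam was above every sire, and the difference of sires from dams was -14.2 points (log2 ratio -1.93, SE 0.24, adjusted p = 2.8e-05, limma). The F1 animals, compared after the parents' values were seen, had 80.9% ± 2.78 in males and 96.1% ± 1.66 in females (SD, n = 6), a difference of -15.2 points (log2 ratio -2.54, SE 0.24, adjusted p = 1.3e-06, limma; 1 of 321 promoters called, against 0.146% of all, and 0 of 322 last exons, against 0.162%). Without C3B6F1 male 1 the difference was -16.0 points (adjusted p = 2.4e-06, limma), and Zfp445 was again the 1 call. The F1 females had not borne litters.

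Of the 13 CpGs around this start, 6 were at least 10 points higher in dams than in sires, and the same 6 were at least 10 points higher in F1 females than in F1 males. The others were above 88% in all 4 sets of animals. The CpG 325 bp after the annotated start had 38.5% in sires and 76.9% in dams, and 49.6% in F1 males and 89.6% in F1 females. The model of Zfp445 begins with coding sequence, and the window covers a coding exon, of which a stretch follows (chr9:122770996-122771196, mm9, minus strand) with the 3 CpGs of this kind in capitals and the other CpGs in lower case. Those 3 had a mean of 58.4% in sires, 88.6% in dams, 66.3% in F1 males and 94.7% in F1 females.
Zfp445: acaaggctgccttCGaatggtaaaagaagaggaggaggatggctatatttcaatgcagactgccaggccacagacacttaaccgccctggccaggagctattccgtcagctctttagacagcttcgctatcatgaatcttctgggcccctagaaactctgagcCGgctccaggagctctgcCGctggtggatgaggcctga

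**Figure D5:**
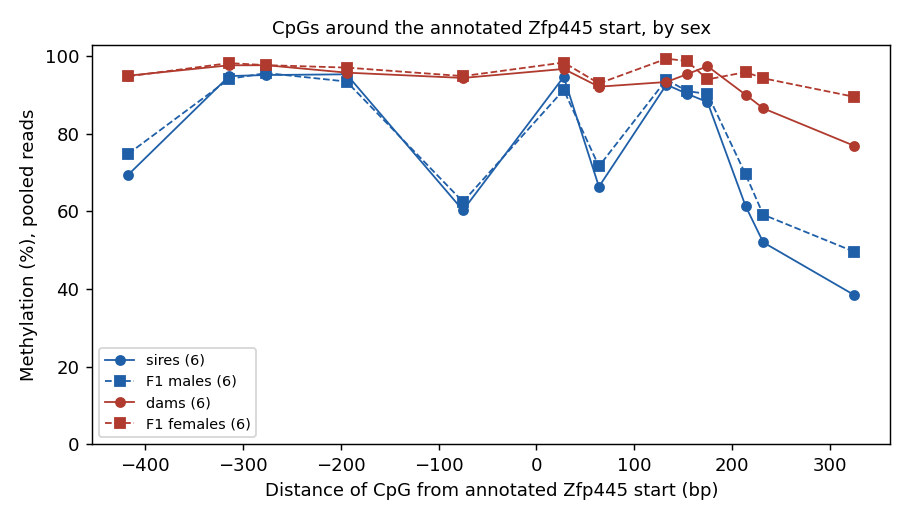
Methylation (y, %; reads pooled over 6 animals per line) of the 13 CpGs around the annotated start of Zfp445 by distance from it (x, bp), in sires and F1 males (blue) and dams and F1 females (red). The 6 CpGs with a gap between the colours lie among CpGs that are high in all animals.

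At any size, 2 promoters (Zfp445 and Zfp62) and 2 last exons differed between sires and dams at an adjusted p below 0.05 (limma), against 0.526% of all promoters and 1.27% of all last exons. The last exons did not reach 10 points. Zfp36l2 was at 1.38% ± 0.328 in sires and 3.20% ± 0.582 in dams (SD, n = 6; adjusted p = 0.00026, limma), and F1 males and females were at 1.84% ± 0.356 and 1.64% ± 0.102. Zfp706 was at 93.1% ± 1.21 in sires and 89.2% ± 0.545 in dams (adjusted p = 0.0039, limma), with 93.2% ± 0.982 in F1 males and 93.8% ± 0.339 in F1 females. At both, the dams stood apart from the other 3 sets of animals. In the comparison of dams with F1 females these 2 last exons also passed at any size, Zfp36l2 with 1.56 points (adjusted p = 0.022, limma) and Zfp706 with -4.57 points (adjusted p = 0.0032, limma), against 0.192% of all last exons, and 0 promoters did, against 0.0729%. That comparison shares the dams with the one of sires and dams.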

How the data were processed

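Per the labels and the study's methods, the authors aligned bisulfite reads to mm9 with Bismark 0.7.8 and Bowtie 0.12.8 (submitters' processing notes, which also name CASAVA 1.8.2 and Picard 1.110), removed duplicates and merged the libraries of each animal. The deposited values are raw counts of methylated and unmethylated reads per CpG, 48 columns for 24 animals; 0 other columns of samples were present. The deposited list of variants gives the base of each strain. Only its positions were used here, so whether B6 and C3 differ at an entry was not checked. The 12 FOXA1 ChIP and input samples were not analysed here.

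For each gene the protein-coding transcript with the longest coding sequence (GENCODE annotation of mm9) gave the start, with 500 bp on either side as promoter, and the last exon. Counts were summed per region and methylation is 100 times methylated over all reads. Counting error and the spread between animals are not separated. Regions with at least 5 CpGs and 30 reads in every animal were tested with limma 3.58.1 (R 4.3.3; trended, robust) on log2 of methylated + 1 over unmethylated + 1, with a mean for each of 8 groups. A call needed an adjusted p below 0.05 and 10 points. On simulated data, tested on 35866 regions for B6 against C3, 198 of 200 changes of 20 points were recovered with 0 false calls. Changes near 10 points, the minimum for a call, were not simulated. Python 3.11.15 served for the rest. 1 Zfp promoter failed the minimum of reads.

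The members, the gene lists and the contrasts were chosen with earlier results of these data known. Genes were named by a rule: the 6 highest and 6 lowest promoters, the 6 lowest last exons, called genes, listed genes, and clusters of 5 or more. Zfp263, Zfp180, Zfp619, Zfp759, Zfp706 and Zfp748, the last exon difference of Zfp36l2, the genes with the promoter above the last exon, those with another upstream start and Zfp142 were added after their values were seen. Of the lists, Zfp393 and Zfp264 had no gene model under that symbol.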

Additional observations from a re-analysis of the deposited data

Results flagged for a closer look

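Of 32 groups of 6 animals tested over the 8 regions described by strain, 5 held an animal far from the others. The rule flags about 1 in 20 groups where values are independent and normally spread. Each group here holds both sexes and the regions share the same animals, so 5 of 32 is not read as an excess. At the promoter window of Zfp109, B6 male 2 was at 49.0%, with the other B6 animals between 31.1 and 36.9%, and C3 female 3 was at 35.9%, with the others between 21.8 and 25.2%. At the last exon of Zfp933, C3 male 2 was at 82.5%, with the others between 85.7 and 87.3%, and B6 female 3 was at 95.5%, with the others between 96.1 and 96.5%. At the promoter of Zfp619, C3 female 2 was at 4.09%, with the others between 1.25 and 1.96%.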

How the results depend on the processing

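Zfp575 kept its call under all 40 alternatives, between -25.5 and -23.1 points with single animals left out. Called strain promoters numbered 0 at 20 points, with windows of 250 bp, with thinned reads, with CpGs of at least 5 reads in every animal and with leader-bearing transcripts alone (chosen after seeing the data), 4 with windows of 1000 bp and 35 with no minimum difference; with single animals left out they ranged from 0 to 2. Called strain last exons numbered 1 at 20 points, in the coding part and without CpGs at a variant (chosen after seeing the data), and 38 with no minimum; leaving out single animals gave 1 to 2, with the call of Zfp933 lost without C3 male 2. In the coding part, which leaves out the 4 CpGs in opposite states, the Zfp933 difference reversed to -0.636 points. Calls between sires and dams numbered 0 at 20 points and with leader-bearing transcripts alone, 4 with no minimum and 1 to 2 with single animals left out. Dams against F1 females gave 2 with no minimum, the last exons of Zfp36l2 and Zfp706. Calls between F1 males and F1 females (alternatives chosen after seeing the data) numbered 0 at 20 points and with leader-bearing transcripts alone, and 1 without each single animal, with Zfp445 between -16.0 and -14.2 points. Leader-bearing transcripts alone leave out Zfp109 and Zfp445, which have no annotated leader, so their calls could not remain there. A minimum of 20 points exceeds the differences at Zfp109, Zfp445 and Zfp933, so these calls could not remain either. The promoter median was 0.513% with 250 bp, 11.4% with 1000 bp and 1.86% with leaders alone. Methylated promoters numbered 27 with 250 bp, where the number of genes that kept at least 5 CpGs is not given, and 19 of 285 with leaders alone. The last exon median was 95.3% in the coding part. The cause of these changes was not tested. Clusters at 100 or 500 kb gave clustered medians of 3.99 and 3.43%. The labels do not say that replicate numbers pair the animals, and correlations of same-numbered animals ran from -0.12 to 0.205 (mean 0.018); 16 of 24 animals were closest to one of their own number, a hint of pairing from the data and not the design. With a replicate block the counts were 1 strain promoter, 2 strain last exons, 1 between sires and dams, 1 between F1 males and F1 females, and 0 between the crosses, between F1 animals and the parents' mean, and between dams and F1 females, as without it; the strain difference by sex was not counted with the block.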
